A study of Mus musculus with 21 samples.

Results

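The 8 genes described here, of 37310 in the deposited tables, were selected on their TPM, which was much lower in the libraries labelled AIN_VdrKO than in the AIN or AINlowVitD libraries. They are Insl6, Dio1, Serpina1b, Serpina1c, Raet1c, Gm14446, Cbx6 and 2010001M06Rik, and 8 of 8 were found by name. RNA was sequenced in bulk from flow-sorted Lgr5-EGFP cells of the mouse intestine, where Lgr5 marks the stem cells of the crypt, in 21 libraries that form 7 groups of 3. All mice carried the Lgr5EGFPcre-ERT2 allele, which reports Lgr5 by EGFP, and were fed purified diets from weaning to 3 months of age. AIN_VdrKO mice received AIN76A and are labelled as lacking the vitamin D receptor. NWD1Ca mice received NWD1 with calcium at 7 mg/g, and NWD1VitD mice received NWD1 with vitamin D at 2.3 IU/g. NWD1 and NWD2 are purified diets of a makeup that the labels do not state. AINlowVitD mice received AIN with vitamin D at 0.11 IU/g, and AIN mice received AIN76A. The labels state these amounts per g of body weight. AIN_VdrKO held 3 males, NWD1Ca held 3 females, and the other groups held both sexes. The labels give the same strain name for all 21 libraries and name neither the parental strain of the Vdr allele nor any backcrossing. In these data the genotype and any strain background that came with it cannot be told apart. Of the other 18 libraries, 8 were from males.

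The vitamin D receptor, encoded by Vdr, is a nuclear receptor that pairs with the retinoid X receptor on DNA and, in the intestine, is best known for driving genes of calcium uptake. None of the 8 genes is a textbook member of that calcium programme. They encode a relaxin-family hormone, an enzyme of thyroid hormone activation, a pair of protease inhibitors, a ligand of natural killer cells, an interferon-inducible protein, a Polycomb subunit and a transcript antisense to a metabolic enzyme. As background, inbred mouse strains are known to differ in the gene content of the Serpina1 and Raet1 clusters, and C3H mice are known for low hepatic Dio1.

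Counts on genes ranged from 19889795 to 115435120 per library. Vdr itself, summed over the whole gene, had 297, 481 and 247 CPM (read counts scaled to library size, with the TMM correction for library composition) in the AIN_VdrKO libraries, against 338, 373 and 746 CPM in AIN. The fitted difference in Vdr was -0.56 ± 0.37 on the log2 scale (SE) with an adjusted p of 0.348 in edgeR's quasi-likelihood test, so the gene-level count does not show a loss of Vdr RNA. A gene-level sum cannot show a deletion that leaves other exons transcribed, and the labels do not name the deleted part. The groups are therefore called by their labels. S100g, the calcium-binding protein calbindin-D9k and a known Vdr target, was at 46.0, 9.48 and 4.44 CPM in AIN_VdrKO, against 1490, 489 and 441 CPM in AINlowVitD and 101, 106 and 43.2 CPM in AIN. It fell against AINlowVitD (log2 -5.03 ± 1.04, SE, adjusted p = 0.0128), a call that was lost without AIN_VdrKO 2 or AIN_VdrKO 3 (adjusted p = 0.0621 and 0.0651) and with only the 2 groups fitted (adjusted p = 0.239). Against AIN the log2 difference was -1.75 ± 0.96 and did not pass (adjusted p = 0.253). Lgr5, the marker of the sort, was present in every library, at 24.0 to 44.9 CPM in AIN_VdrKO and 9.49 to 87.1 CPM in the others. The libraries also differed in a way the base diets did not follow. The share of gene counts from mitochondrial ribosomal RNA was 1.38% to 2.80% in AIN_VdrKO and 2.95% to 5.07% in NWD1Ca, NWD1VitD and AINlowVitD, against 0.234% to 0.965% in NWD1, NWD2 and AIN. The AIN_VdrKO range overlapped with that of no other group. In every comparison with AIN_VdrKO, the set of libraries and the genotype therefore cannot be told apart. In the bulk sort, fewer cells of a type and less RNA per cell cannot be told apart.

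Of the 8 genes, 7 had all 3 AIN_VdrKO libraries below each of the other 18 libraries in CPM, and the eighth, 2010001M06Rik, did so in TPM. The same position was found for 125 of 12294 genes with a mean of at least 1 CPM in the other libraries, 1.02%. Because the genes were picked for low levels in these libraries, the count describes the choice and nothing is read from it. The values below show how far each gene was from the other groups and how it varied among them.

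**Figure D1:**
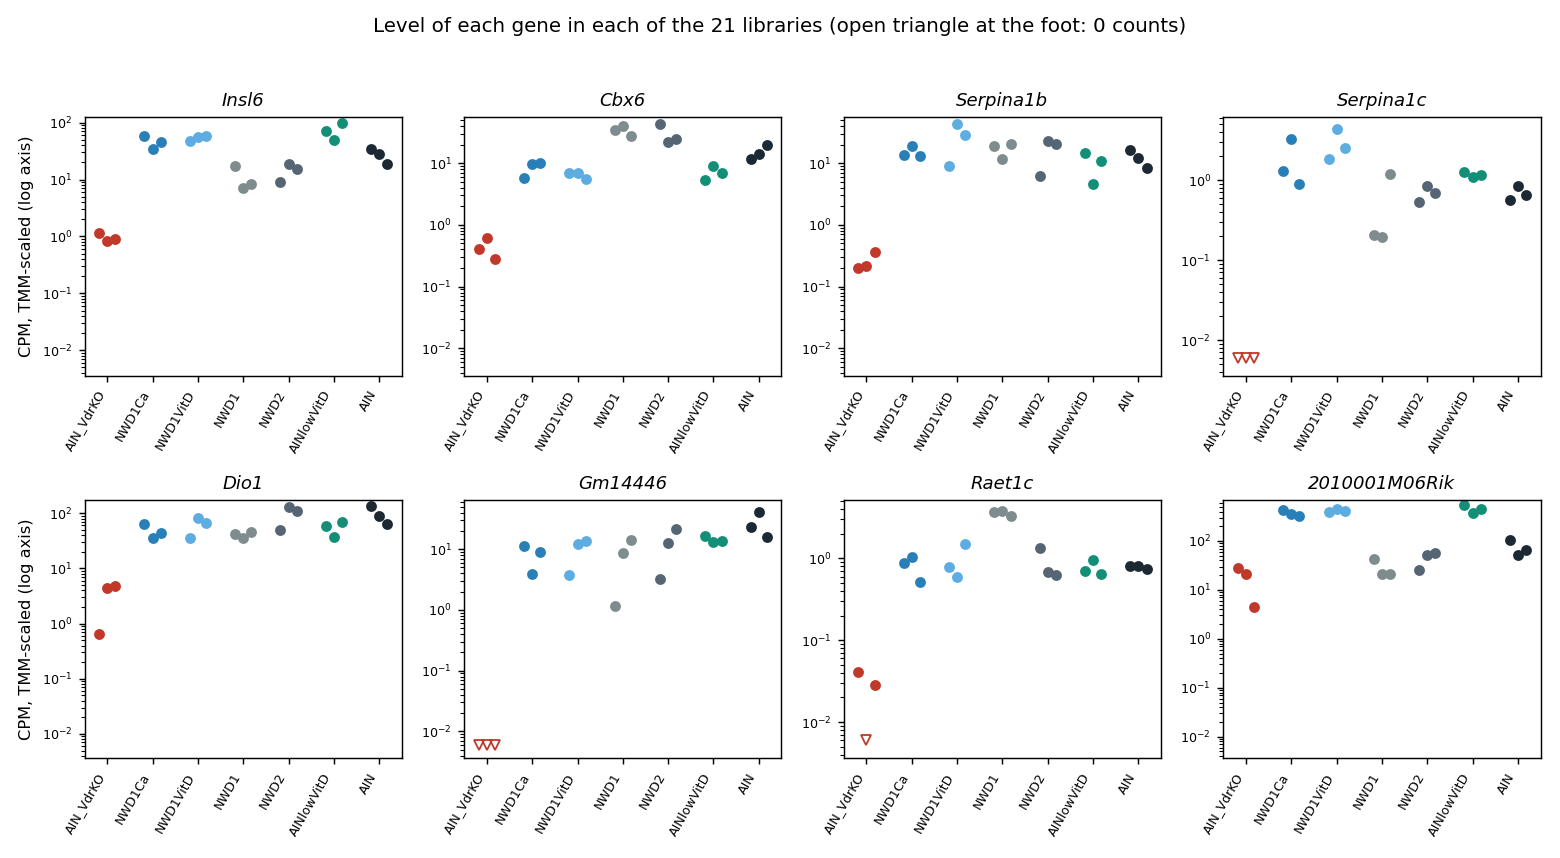
TMM-scaled CPM on a log axis for each of the 8 genes, with 1 point per library and 3 libraries per group. The AIN_VdrKO points lie below the 18 others in every panel but that of 2010001M06Rik, and open triangles mark libraries with 0 counts.

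Insl6 (ENSMUSG00000050957.3, chromosome 19) encodes a peptide of the relaxin and insulin family that is known from the testis, where it is needed for sperm maturation. Its level was 1.17, 0.826 and 0.910 CPM in the 3 AIN_VdrKO libraries, from 29, 19 and 128 counts. It was 34.1 to 57.3 CPM in NWD1Ca, 48.2 to 57.1 CPM in NWD1VitD, 7.16 to 17.2 CPM in NWD1 and 9.15 to 19.1 CPM in NWD2. AINlowVitD libraries had 72.2, 50.4 and 98.3 CPM and AIN libraries 33.9, 28.1 and 18.8 CPM. The AIN_VdrKO libraries lay close together, and the lowest library outside them, NWD1 2 at 7.16 CPM, was 6.12 times above their highest. Pooled over libraries, Insl6 was 83.5-fold lower in AIN_VdrKO than in AINlowVitD (95% counting interval 71.8 to 97.5) and 29.3-fold lower than in AIN (25.2 to 34.2). The 6 testis genes of the marker list summed to 0.789 to 1.83 CPM in AIN_VdrKO, against 1.39 to 3.74 CPM in AINlowVitD and 2.81 to 4.35 CPM in AIN, with Prm2 and Tnp1 at 0 in all libraries. Their part in the Insl6 difference was not tested. Of the other genes of the relaxin and insulin-like list, Igf2 and the relaxin-family receptor gene Rxfp2 could be tested, and neither passed (adjusted p = 0.0769 and 0.871).

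Dio1 (ENSMUSG00000034785.8, chromosome 4) encodes type 1 deiodinase, the selenoenzyme that converts thyroxine to the active hormone triiodothyronine and clears reverse triiodothyronine. The AIN_VdrKO libraries had 0.646, 4.39 and 4.76 CPM, from 16, 101 and 670 counts, so AIN_VdrKO 1 was well below the other two. Dio1 was at 34.9 to 64.6 CPM in NWD1Ca, 35.2 to 80.8 CPM in NWD1VitD, 36.2 to 45.3 CPM in NWD1 and 48.8 to 132 CPM in NWD2. It had 59.6, 37.1 and 69.4 CPM in AINlowVitD and 133, 89.5 and 63.3 CPM in AIN. No library of these 6 groups came near the AIN_VdrKO range, and NWD1 lay below NWD2 and AIN without overlap. The pooled level in AIN_VdrKO was 14.1-fold lower than in AINlowVitD (13.0 to 15.2) and 22.6-fold lower than in AIN (21.1 to 24.3), and without AIN_VdrKO 3 it was 24.0-fold and 38.6-fold lower. Of 11 other tested genes of thyroid hormone handling, none passed the test between AIN_VdrKO and AIN, where 12.5% of all 16050 genes did. The receptor gene Thra was at 43.0, 48.4 and 47.5 CPM in AIN_VdrKO against 30.0, 40.0 and 22.8 CPM in AIN (adjusted p = 0.132). Klf9, a known thyroid hormone target, was at 14.1, 20.8 and 12.7 CPM in AIN_VdrKO against 14.2, 14.2 and 6.45 CPM in AIN (adjusted p = 0.182).

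Serpina1b (ENSMUSG00000071178.4) and Serpina1c (ENSMUSG00000079015.2), both on chromosome 12, encode alpha-1 antitrypsins, secreted inhibitors of neutrophil elastase made mainly by the liver. Serpina1b was at 0.202, 0.217 and 0.363 CPM in AIN_VdrKO, from 5, 5 and 51 counts. It was at 13.1 to 19.3 CPM in NWD1Ca, 8.85 to 42.6 CPM in NWD1VitD, 11.8 to 20.7 CPM in NWD1 and 6.12 to 22.5 CPM in NWD2, and at 14.7, 4.66 and 10.8 CPM in AINlowVitD and 16.2, 12.2 and 8.29 CPM in AIN. The lowest library outside AIN_VdrKO was AINlowVitD 2, still over the AIN_VdrKO range. Serpina1b was 34.1-fold lower in AIN_VdrKO than in AINlowVitD (26.3 to 45.0) and 37.9-fold lower than in AIN (29.4 to 49.7), and without AIN_VdrKO 3 it was 52.8-fold and 58.6-fold lower. Serpina1c had 0 counts in all 3 AIN_VdrKO libraries. It was a low gene elsewhere, at 0.888 to 3.28 CPM in NWD1Ca, 1.86 to 4.39 CPM in NWD1VitD, 0.193 to 1.18 CPM in NWD1 and 0.531 to 0.832 CPM in NWD2. AINlowVitD libraries had 1.25, 1.09 and 1.15 CPM, and AIN libraries had 0.558, 0.834 and 0.643 CPM. With 3 counts over the group as the floor that a count of 0 allows, Serpina1c was at least 73.8-fold lower in AIN_VdrKO than in AINlowVitD and at least 44.9-fold lower than in AIN. Such intervals and floors cover counting error only and leave out the spread between libraries, because the counts of each group were pooled. The libraries carried no molecular identifiers, so copies of a molecule could not be told from separate molecules. The counting error itself may therefore be understated. Alb, the albumin gene that defines hepatocytes, was at 0.261 to 1.09 CPM in AIN_VdrKO against 0 to 2.80 CPM over the other 18 libraries, so this defining marker was near 0 in all of them. The 10 genes of the hepatocyte list, some of which the gut also expresses, summed to 1087 to 1925 CPM in AIN_VdrKO, against 602 to 975 CPM in AINlowVitD and 794 to 3345 CPM in AIN. The AIN_VdrKO sums lay above those of AINlowVitD and within the range of AIN. Of the 7 tested genes of the list, Cyp2e1 fell against AIN and none rose, where 5.09% of all genes fell and 7.44% rose. The part of the hepatocyte list in the Serpina1 levels was not tested.

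These 2 genes are near-copies, and how well a read can be placed differs along them. Their coding sequences of 1242 bases each were 96.6% identical in GENCODE M21. Of all runs of 50 bases, 44.8% in Serpina1b and 74.6% in Serpina1c also occur in another Serpina1 gene, so a uniquely placed read is possible over only part of Serpina1c. The stretch that separates them best, coding bases 1114 to 1173, has 9 differing bases in 60, in capitals, and is shown because only reads over such bases can tell the copies apart.
Serpina1b coding bases 1114 to 1173: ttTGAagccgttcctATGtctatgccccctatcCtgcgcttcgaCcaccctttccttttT
Serpina1c coding bases 1114 to 1173: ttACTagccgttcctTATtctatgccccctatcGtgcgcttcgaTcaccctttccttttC

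The remaining Serpina1 copies were also low in AIN_VdrKO. Serpina1e was at 0.0404, 0 and 0.0213 CPM in AIN_VdrKO, against 0.831, 0.666 and 1.60 CPM in AINlowVitD and 0.458, 1.66 and 0.579 CPM in AIN. It passed the test in both comparisons, with a log2 difference of -5.07 ± 1.16 against AINlowVitD (adjusted p = 0.0218) and -4.61 ± 1.19 against AIN (adjusted p = 0.0154). Serpina1a and Serpina1d had 3 and 8 counts over the 3 AIN_VdrKO libraries, against 49 and 90 counts over the 3 AIN libraries. Neither passed against AIN (adjusted p = 0.0542 and 0.110). A read shared by copies can be lost or assigned to either, so single members of this family are uncertain. Of 7 tested genes of the alpha-1 antitrypsin list outside the 8, 2 fell against AIN, Serpina1e and Serpina9 (log2 -1.96 ± 0.49, adjusted p = 0.0123), and none rose, where 5.09% of all genes fell.

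The promoters of the pair are printed because these genes were low together. RefSeq windows of 300 bases (250 before the start and 50 after it, GRCm38.p6) were found for 7 of the 8 genes, in 9 windows; Insl6 had none. The Serpina1b and Serpina1c windows were 91.4% identical. Capitals mark GTTAAT, part of the site that the liver and gut factor HNF1 binds, searched on both strands. It lies at base -26 from the start in Serpina1b and at -27 in Serpina1c, and 7.1% of all 32851 RefSeq windows hold it.
Serpina1b promoter, chr12:103738140-103738439, minus strand: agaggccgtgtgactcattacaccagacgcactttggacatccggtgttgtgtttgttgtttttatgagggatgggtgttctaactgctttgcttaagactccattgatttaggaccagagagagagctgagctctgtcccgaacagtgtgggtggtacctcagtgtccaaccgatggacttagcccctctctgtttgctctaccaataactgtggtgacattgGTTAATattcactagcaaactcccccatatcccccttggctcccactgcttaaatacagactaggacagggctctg
Serpina1c promoter, chr12:103904901-103905200, minus strand: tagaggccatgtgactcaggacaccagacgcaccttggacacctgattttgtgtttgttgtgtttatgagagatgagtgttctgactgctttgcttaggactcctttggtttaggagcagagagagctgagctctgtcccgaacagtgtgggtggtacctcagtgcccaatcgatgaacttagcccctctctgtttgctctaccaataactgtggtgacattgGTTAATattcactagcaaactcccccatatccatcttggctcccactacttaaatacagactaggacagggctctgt

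Raet1c (ENSMUSG00000053219.7, chromosome 10) stands in the deposited table under a name of the Raet1 family, surface ligands of the natural killer cell receptor NKG2D that are known as markers of stressed cells. The same identifier is named Raet1e in GENCODE M21. The AIN_VdrKO libraries had 1, 0 and 4 counts, or 0.0404, 0 and 0.0284 CPM. Levels were 0.521 to 1.04 CPM in NWD1Ca, 0.597 to 1.50 CPM in NWD1VitD, 3.28 to 3.75 CPM in NWD1 and 0.622 to 1.35 CPM in NWD2, and 0.703, 0.968 and 0.639 CPM in AINlowVitD and 0.817, 0.803 and 0.750 CPM in AIN. The 3 NWD1 libraries stood above all others. Raet1c was 27.6-fold lower in AIN_VdrKO than in AINlowVitD and 29.9-fold lower than in AIN, with wide counting intervals of 11.2 to 88.3 and 12.5 to 93.4. Its close relative Raet1d, with a coding sequence 93.6% identical, showed counts of 1, 1 and 9 in the AIN_VdrKO libraries. It had 1 count in 1 AINlowVitD library, 1 count in 1 AIN library and 0 counts in the other 16 libraries. Raet1d was too low for the fit across genes, and 34.5% of the runs of 50 bases in Raet1c also occur in a relative, so reads of the 2 copies can be confused. Pooled, Raet1d was 11.2 times higher in AIN_VdrKO than in AIN, with a counting interval of 1.62 to 481.

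Gm14446 (ENSMUSG00000079339.6, chromosome 19), named Ifit1bl1 in GENCODE M21, belongs to the Ifit genes, which are induced by interferon and whose best-known products bind viral RNA. It had 0 counts in each AIN_VdrKO library. The other groups had 3.91 to 11.4 CPM in NWD1Ca, 3.75 to 13.5 CPM in NWD1VitD, 1.14 to 14.2 CPM in NWD1 and 3.27 to 21.2 CPM in NWD2, with 16.2, 13.1 and 13.4 CPM in AINlowVitD and 23.2, 41.4 and 15.6 CPM in AIN. This was the widest gap of the 8 genes. From the floor of 3 counts over the group, Gm14446 was at least 908-fold lower in AIN_VdrKO than in AINlowVitD and at least 1906-fold lower than in AIN. Ifit1, a neighbour in the same cluster, was not at 0, with 4.97, 27.0 and 5.42 CPM in AIN_VdrKO, against 28.6, 11.1 and 20.1 CPM in AINlowVitD and 25.6, 48.7 and 20.7 CPM in AIN. Ifit1 did not pass against AIN (log2 -0.80 ± 0.83, adjusted p = 0.568). Ifit3, next to Gm14446, was low as well, at 0.162, 0.217 and 0.199 CPM in AIN_VdrKO against 8.44, 2.36 and 3.07 CPM in AINlowVitD and 6.46, 19.0 and 5.10 CPM in AIN. It fell against AINlowVitD (log2 -3.62 ± 0.94, adjusted p = 0.0398) and against AIN (log2 -4.66 ± 0.96, adjusted p = 0.00410). In NWD1, Ifit3 was at 0.178, 0 and 0.699 CPM and Gm14446 at 1.14, 8.76 and 14.2 CPM, and both lay below all AIN libraries. Ifit3 fell in NWD1 against AIN (log2 -4.96 ± 0.91, adjusted p = 0.0216). Gm14446 was lower by a log2 of 1.51 ± 0.66 and did not pass (adjusted p = 0.280). Whether the 2 genes differed in this was not tested. Ifit3 is 99.1% identical in coding sequence to Ifit3b, and its counts are uncertain for that reason. Gm14446 shares 7.4% of its runs of 50 bases with the other Ifit genes, so most of it can be told apart. Of 5 other tested Ifit genes, Ifit3 alone fell in AIN_VdrKO against AIN and none rose, where 5.09% of all genes fell and 7.44% rose. In NWD1 against AIN, 3 of these 5 fell and none rose, where 0.766% of all genes passed.

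The first of the 2 RefSeq windows of Gm14446 is printed because the gene had no counts in AIN_VdrKO while Ifit1 did. Capitals mark GAAANNGAAA, the core of the element through which interferon factors act, here on the opposite strand, at base -104 from the start. This motif is in 3.44% of all windows.
Gm14446 promoter, window 1, chr19:34601919-34602218, minus strand: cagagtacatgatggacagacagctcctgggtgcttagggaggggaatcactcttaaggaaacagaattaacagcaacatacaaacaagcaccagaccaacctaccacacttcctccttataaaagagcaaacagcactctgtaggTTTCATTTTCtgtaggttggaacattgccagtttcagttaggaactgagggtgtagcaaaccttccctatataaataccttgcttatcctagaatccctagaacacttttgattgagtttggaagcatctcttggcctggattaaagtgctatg
The direct repeats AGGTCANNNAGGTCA, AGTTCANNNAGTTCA and GGTTCANNNGGTTCA, textbook forms of the element bound by the vitamin D receptor, had no match on either strand in the 9 windows. They are rare, with matches in 0.00609%, 0.0% and 0.00609% of the 32851 windows. No match says only that these letters are not in these windows.

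Cbx6 (ENSMUSG00000089715.3, chromosome 15) encodes a chromodomain subunit of Polycomb repressive complex 1, which binds methylated histone H3 at silenced genes. AIN_VdrKO libraries had 0.404, 0.609 and 0.277 CPM, from 10, 14 and 39 counts. The gene was at 5.74 to 10.2 CPM in NWD1Ca and 5.63 to 7.03 CPM in NWD1VitD, but at 27.8 to 40.6 CPM in NWD1 and 22.0 to 43.4 CPM in NWD2. AINlowVitD libraries had 5.44, 8.90 and 6.93 CPM, below the 11.7, 14.0 and 19.8 CPM of AIN libraries. The pooled level in AIN_VdrKO was 20.2-fold lower than in AINlowVitD (15.5 to 26.7), 44.3-fold lower than in AIN (34.5 to 57.9) and 105-fold lower than in NWD1 (81.7 to 136), and without AIN_VdrKO 3 it was 13.4-fold, 29.5-fold and 69.7-fold lower. Npcd, which overlaps Cbx6 in the annotation, had 0 counts in all libraries. Of 18 other tested genes of the complex, 3 rose against AIN and none fell, where 7.44% of all genes rose. Those 3 were Bmi1, with means of 7.95 TPM in AIN_VdrKO and 4.01 TPM in AIN (adjusted p = 0.0251), Phc2, with a log2 difference of 2.29 ± 0.40 (adjusted p = 0.00114), and Yaf2, with one of 1.61 ± 0.32 (adjusted p = 0.00300). Against AINlowVitD, none of the 18 rose or fell. Phc2 and Yaf2 also rose in AINlowVitD against AIN and in both NWD1Ca and NWD1VitD against NWD1, where 15.1%, 15.6% and 19.9% of all genes rose. Cbx7, which encodes another subunit with a chromodomain, was at 1.98, 2.83 and 3.22 CPM in AIN_VdrKO against 3.93, 6.84 and 3.67 CPM in AIN (adjusted p = 0.183).

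The last of the 8, 2010001M06Rik (ENSMUSG00000085042.1, chromosome 5), is named Abhd11os in GENCODE M21 and runs antisense to Abhd11, a gene of a mitochondrial hydrolase. The AIN_VdrKO libraries had 27.6, 21.1 and 4.43 CPM, the third well below the first pair. NWD1Ca and NWD1VitD libraries had 328 to 457 CPM, whereas NWD1 had 42.9, 20.8 and 21.2 CPM and NWD2 had 25.5, 51.3 and 57.7 CPM. AINlowVitD libraries had 541, 366 and 460 CPM and AIN libraries 105, 52.4 and 64.7 CPM. In CPM the AIN_VdrKO group overlapped with NWD1 and, through NWD2 1 at 25.5 CPM, with NWD2. In TPM, which scales each library to the sum over gene lengths, it overlapped with neither. AIN_VdrKO had 54.0, 49.5 and 14.7 TPM, against 136, 84.0 and 100 TPM in NWD1 and 114, 180 and 211 TPM in NWD2. The pooled CPM in AIN_VdrKO was 49.7-fold lower than in AINlowVitD (47.4 to 52.1), 7.28-fold lower than in AIN (6.92 to 7.65) and 3.14-fold lower than in NWD1 (2.97 to 3.32). These pooled values rest on AIN_VdrKO 3, which held 70.9% of the gene counts of its group. With each library given the same weight, the group means were 25.7-fold, 4.18-fold and 1.60-fold lower in AIN_VdrKO, and the pooled ratios without AIN_VdrKO 3 were 19.3-fold, 2.83-fold and 1.22-fold lower. Abhd11 on the other strand overlapped between groups, at 128, 96.8 and 101 CPM in AIN_VdrKO against 126, 96.8 and 90.1 CPM in AIN. The fit, which also holds a term for sex, gave a log2 difference of -0.21 ± 0.28 (adjusted p = 0.675), so its sign differs from that of the plain means. Nextera XT libraries keep no strand, and where the exons of this pair overlap their reads cannot be told apart.

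**Figure D2:**
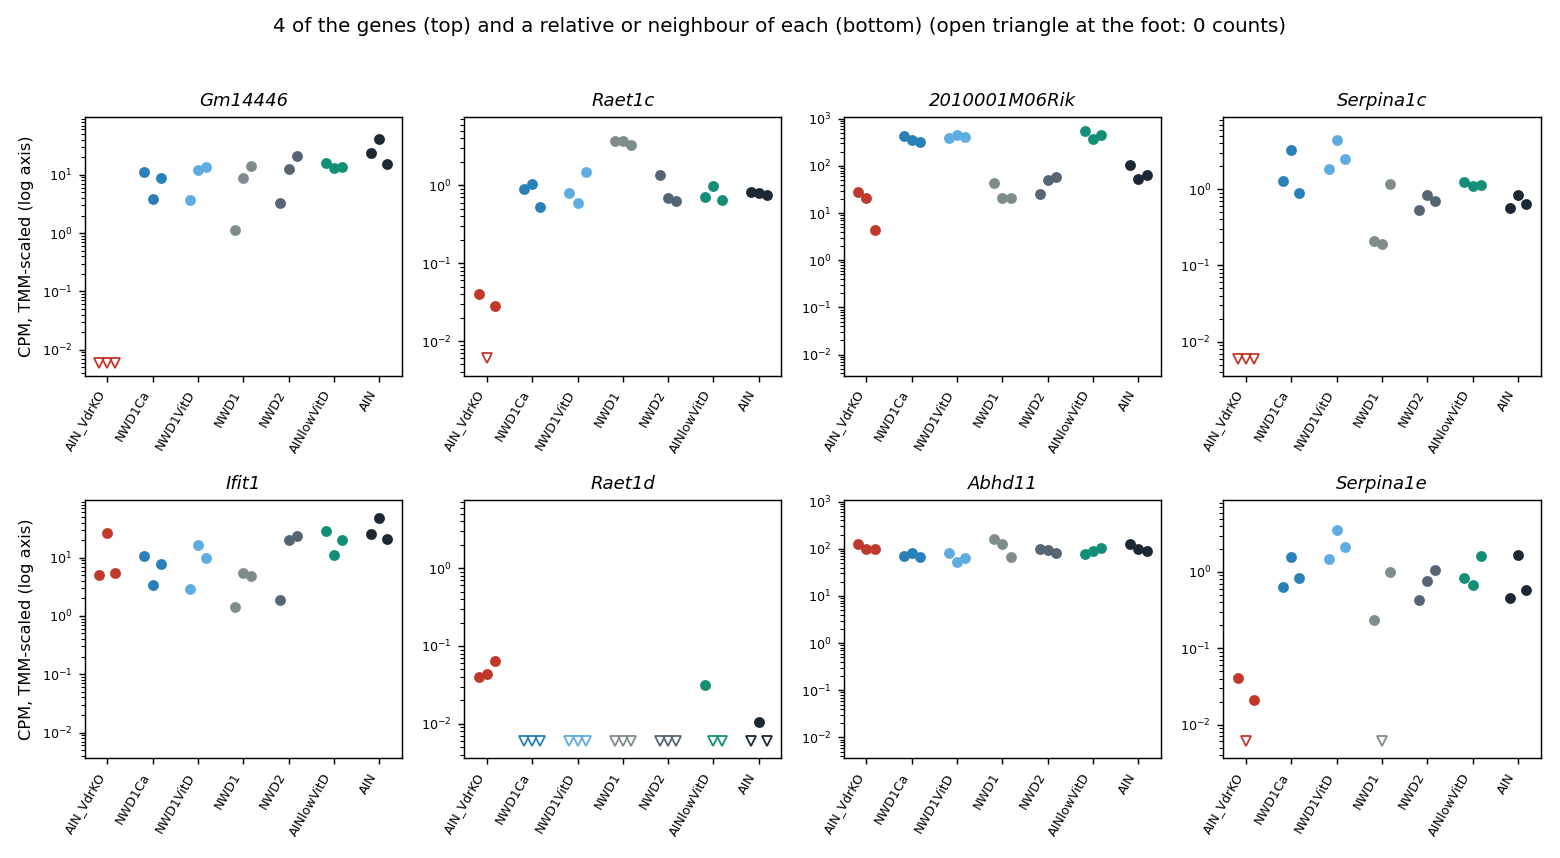
TMM-scaled CPM on log axes for 4 of the genes (top row) and, below each, a relative or neighbour on the same scale, with 1 point per library and open triangles for 0 counts. Ifit1 and Abhd11 keep AIN_VdrKO points within the range of the other groups, Raet1d has its highest points in AIN_VdrKO, and Serpina1e is low there like Serpina1c.

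Because AIN_VdrKO 3 weighs most in the pooled values, the 6 genes with counts in AIN_VdrKO were ranked by the ratio of group means. Against AIN the order was Serpina1b (46.9-fold lower), Cbx6 (35.3), Raet1c (34.4), Dio1 (29.2), Insl6 (27.8) and 2010001M06Rik (4.18). The fitted log2 differences of the first 5 lay between -5.39 and -4.63 with SEs of 0.41 to 0.66, so these 5 were not told apart, while 2010001M06Rik was at -1.99 ± 0.53. Against AINlowVitD the order was Insl6 (76.0-fold lower), Serpina1b (38.5), Raet1c (33.6), 2010001M06Rik (25.7), Dio1 (16.9) and Cbx6 (16.5). The fit gave -6.29 ± 0.46 for Insl6 and -4.95 to -3.90 for the other 5, with SEs of 0.41 to 0.67. By the count fit, Insl6 and 2010001M06Rik were further down against AINlowVitD than against AIN, and Cbx6 less far down. The Insl6 means of AINlowVitD and AIN were 73.6 and 26.9 in CPM but 93.7 and 75.9 in TPM. The order of Cbx6 rests on a call that was lost without some single libraries. For Dio1, Serpina1b and Raet1c no such order is given, because AINlowVitD against AIN did not pass (adjusted p = 0.277, 0.787 and 0.949). Both comparisons share the AIN_VdrKO libraries. Leaving out any 1 library of the groups compared kept 7 of the 8 genes at least 8 times lower in both fitted comparisons, the exception being 2010001M06Rik against AIN. On the log2(TPM + 1) scale, which understates changes of low genes, 1 gene met that size in both. Plain TPM means also gave smaller folds against AINlowVitD than CPM did, with Dio1 at 3.25 TPM in AIN_VdrKO and 25.2 TPM in AINlowVitD.

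**Figure D3:**
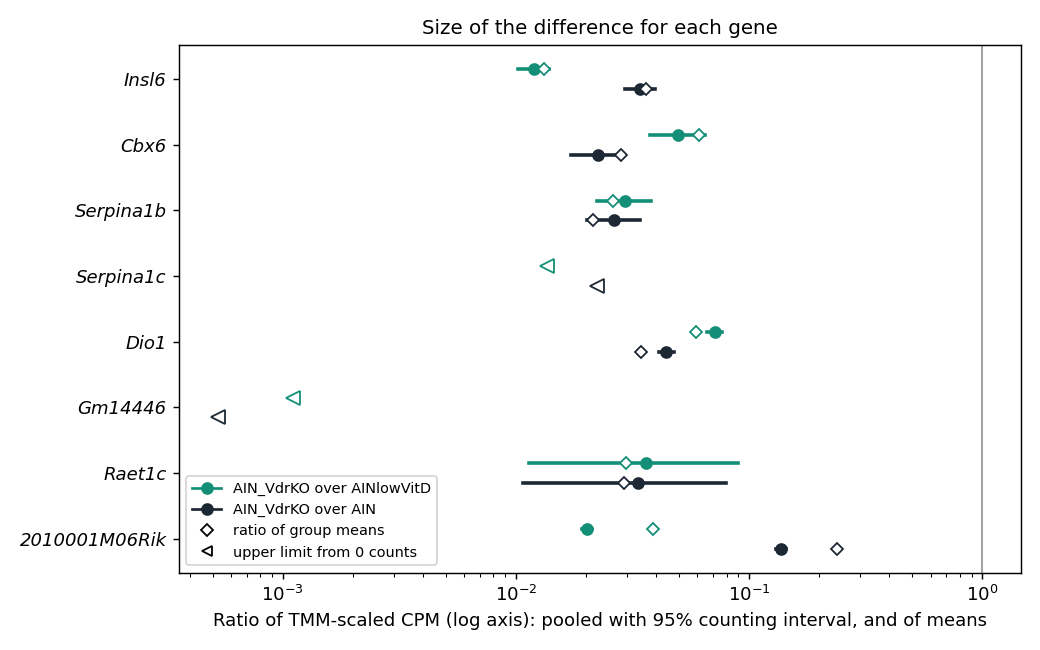
Ratio of TMM-scaled CPM in AIN_VdrKO over AINlowVitD (green) and over AIN (dark) on a log axis, pooled with 95% counting intervals (circles) and as the ratio of group means (diamonds), with triangles as upper limits for Serpina1c and Gm14446, which had 0 counts. Circle and diamond lie furthest apart for 2010001M06Rik, pooled 49.7-fold and by means 25.7-fold lower than in AINlowVitD.

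The genes beside the 8 were compared to see whether whole stretches of chromosome were low. Gene order was taken from GENCODE M21 with 2 neighbours on each side, 32 genes in all, of which 12 had a mean of at least 1 CPM. Of these 12, 3 fell against AIN and none rose, where 5.09% of all genes fell and 7.44% rose. Apobec3, a restriction factor against retroviruses that lies beside Cbx6, had a log2 difference of -1.53 ± 0.25 (SE, adjusted p = 0.000616). Yipf1, a Golgi protein gene beside Dio1, had one of -1.02 ± 0.28 (adjusted p = 0.0239), and Ifit3 is described above. Jak2 beside Insl6 was at 19.3, 48.8 and 33.2 CPM in AIN_VdrKO against 20.1, 15.4 and 20.7 CPM in AIN (adjusted p = 0.0708), so the low level of Insl6 did not extend to it. Against AINlowVitD, 4 of the 12 fell, the same 3 and Hspb11 (log2 -1.73, adjusted p = 0.0341), and none rose, where 3.07% of all genes passed and 2.38% fell.

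**Figure D4:**
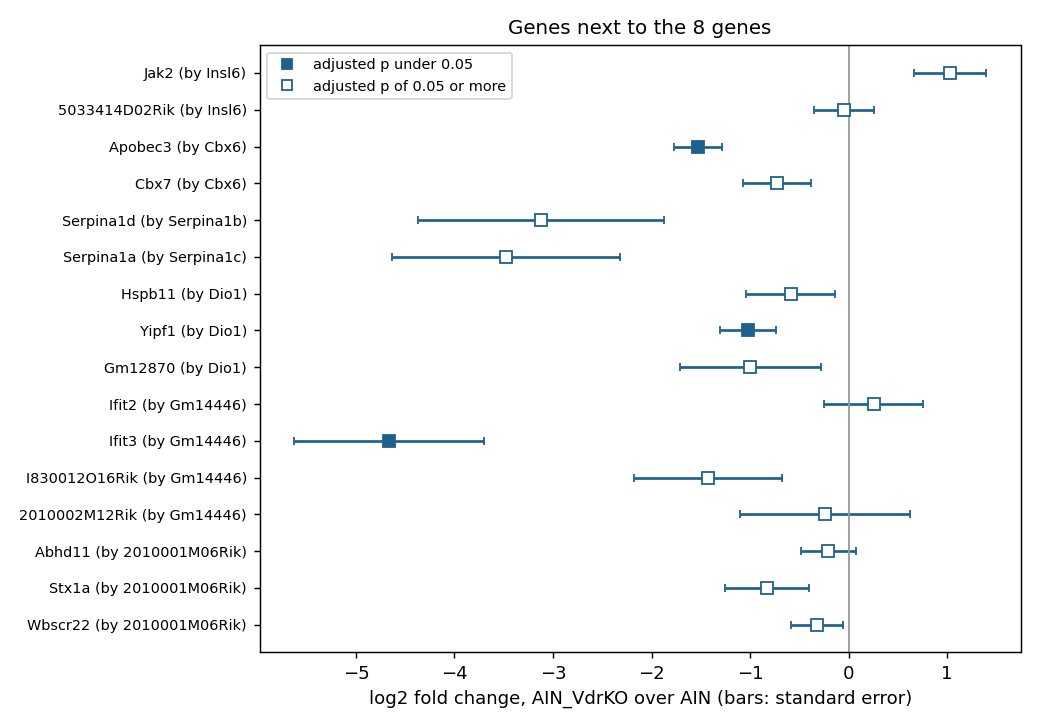
Fitted log2 fold change, AIN_VdrKO over AIN, with standard errors, for the 16 genes next to the 8 that could be fitted, 12 of them with a mean of at least 1 CPM. Apobec3, Yipf1 and Ifit3 are the 3 filled squares, and Jak2 lies to the right of 0 at 1.03.

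The 8 genes lie on 6 chromosomes, with pairs on chromosomes 12 and 19. Vdr and Cbx6 are both on chromosome 15, where 147 steps in the order of tested genes separate them. Of the 100 tested genes nearest to Vdr, 50 on each side, 28 passed between AIN_VdrKO and AIN, 28.0%, with 12 higher and 16 lower, against 12.8% of the 15346 tested genes with a place in the annotation and 15.2% on chromosome 15. With 25 genes on each side the share was 26.0%, and with 100 on each side 21.5%. Against AINlowVitD, 4.0% of the 100 nearest genes passed, against 3.02% of all. These windows were chosen after the data were seen and are a description.

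By the rule that AIN_VdrKO averages at most 1/8 of both AIN and AINlowVitD with every library below the 18 others, 14 of 12294 genes qualified, 0.114%, and 7 of them are among the 8. Without AIN_VdrKO 2 the count was 25, and without AIN_VdrKO 1 or AIN_VdrKO 3 it was 15 and 14. The other 7 genes were Defa21, Defa20 and Defa-ps18 of the Paneth cell defensins, Acvrl1, Cyp2c55, Wfdc9 and Gm16143. Defa21 was at 0.0404 to 0.609 CPM in AIN_VdrKO against 2.29 to 4336 CPM in the other libraries, and defensin genes share reads with near-identical copies. Acvrl1, a receptor of the bone morphogenetic protein family, was at 0.0640 to 0.202 CPM in AIN_VdrKO against 0.893 to 3.42 CPM in the others, and lies 64 steps from Vdr. Cyp2c55, a cytochrome P450 of the gut, was at 0.0808 to 0.348 CPM in AIN_VdrKO against 0.908 to 36.5 CPM in the others. The Paneth marker list as a whole was not low in AIN_VdrKO, with a sum of 8141 to 34790 CPM against 10470 to 49350 CPM in AINlowVitD and 4494 to 6383 CPM in AIN.

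**Figure D5:**
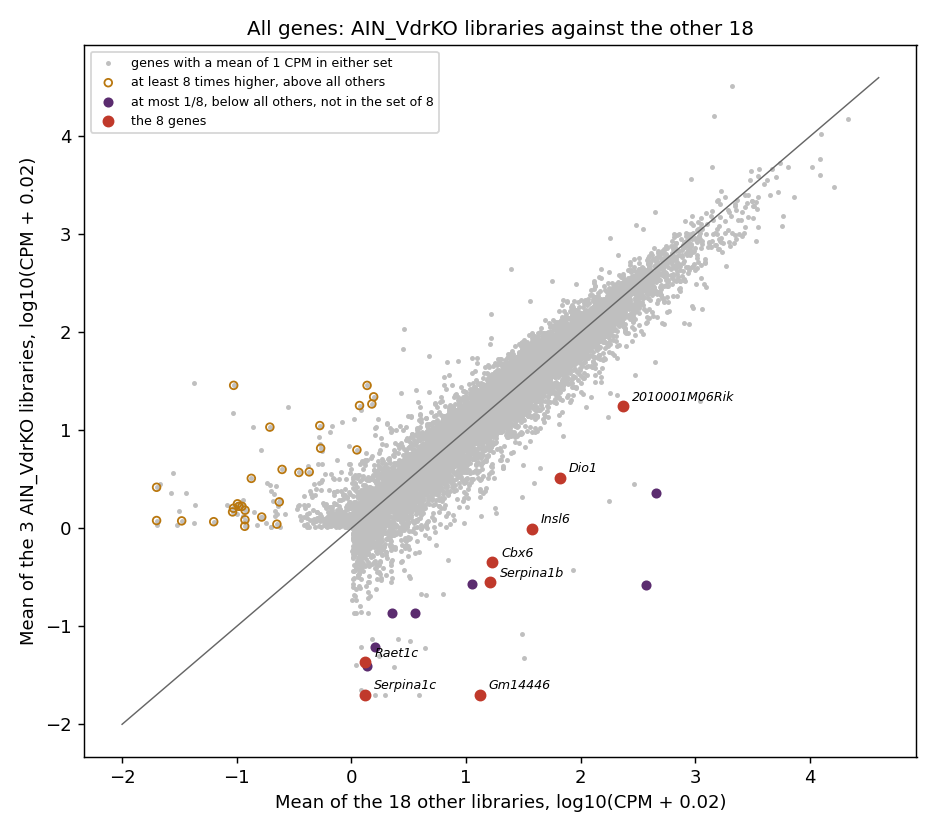
Mean CPM over the 3 AIN_VdrKO libraries against the mean over the 18 others, as log10(CPM + 0.02), for genes with a mean of at least 1 CPM on either side. The 8 genes (red) lie under the diagonal, with the 7 other genes that meet the 1/8 rule (purple) and the 28 genes of the opposite pattern (open circles, 0.231% of 12111).

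Genes with the most similar profile were sought among 12301 genes by Pearson's r between their log2(CPM + 0.5) and the mean standardised profile of the 8 over the 21 libraries, which share the low AIN_VdrKO level by choice. They were Tmem117 (0.93) and Acvrl1 (0.92) on chromosome 15, Ldb3 (0.89) and 1700011H14Rik (0.88) on chromosome 14, and Yipf1 (0.86) on chromosome 4. Tmem117, a membrane protein gene, averaged 2.08 CPM in AIN_VdrKO, against 13.3 CPM in AINlowVitD and 14.6 CPM in AIN, and lies 13 steps from Vdr in the order of tested genes. The correlations describe these libraries only.

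Markers of other cells were compared beside these results. The 8 enterocyte markers summed to 7081 to 12540 CPM in AIN_VdrKO, against 17840 to 61430 CPM in AINlowVitD and 12050 to 17820 CPM in AIN. Goblet markers summed to 4531 to 8822 CPM in AIN_VdrKO, against 28500 to 37870 CPM in AINlowVitD and 9148 to 16120 CPM in AIN. Lgr5 stem cell markers summed to 3731 to 6613 CPM in AIN_VdrKO, against 950 to 2612 CPM in AINlowVitD and 2115 to 3971 CPM in AIN. The goblet sums in AIN_VdrKO lay below both groups without overlap, and the enterocyte sums lay below AINlowVitD and overlapped with AIN. Tuft cell markers summed to 205 to 298 CPM in AIN_VdrKO, below the 352 to 566 CPM in AINlowVitD and the 327 to 857 CPM in AIN. Enteroendocrine markers summed to 1191 to 2527 CPM in AIN_VdrKO, against 5030 to 8337 CPM in AINlowVitD and 1901 to 2090 CPM in AIN. Single markers did not all follow these sums. Against AIN, Clca1 of the goblet list rose, and none of 8 enterocyte, 6 goblet, 6 enteroendocrine and 6 tuft markers fell. Rgmb and Slc12a2 of the 8 stem markers and Ang4 of the 6 Paneth markers also rose against AIN. Over all genes, 7.44% rose and 5.09% fell there. Against AINlowVitD, Fabp1 of the enterocyte, Tff3 of the goblet and Sct of the enteroendocrine markers fell, where 2.38% of all genes fell. T cell, B cell, macrophage and stroma lists each summed to at most 10.9 CPM in AIN_VdrKO. Their part in the low levels of the 8 genes was not tested. NWD1 had the lowest median enterocyte sum, 1817 CPM. For 4 of the 8 genes, Insl6, Serpina1c, Gm14446 and 2010001M06Rik, the lowest library outside AIN_VdrKO was one of NWD1, and for the other 4 it was not.

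The diet comparisons do not use the AIN_VdrKO libraries, so the 8 genes can be tested there, except that AIN and AINlowVitD were used in choosing them. In NWD1 against AIN, 1 of the 8 passed and was higher, against 0.766% of all genes that passed and 0.106% that were higher. Raet1c, at 3.74, 3.75 and 3.28 CPM in NWD1 against 0.817, 0.803 and 0.750 CPM in AIN, rose by a log2 of 2.08 ± 0.47 (SE, adjusted p = 0.0455) without overlap. That call is at the edge, since leaving out any 1 library of NWD1 or AIN gave adjusted p-values of 0.0635 to 0.126. In NWD2 against AIN, 0 of the 8 and 0.0% of all genes passed, while 1099 genes had an unadjusted p under 0.05 and DESeq2 called 4 genes, none of them among the 8.

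Between diets with added calcium or vitamin D and NWD1, several of the 8 genes changed. In NWD1Ca against NWD1, 30.5% of all genes passed, 15.6% higher and 14.9% lower, and 2 of the 8 rose and 2 fell. 2010001M06Rik rose by a log2 of 3.63 ± 0.57 (SE, adjusted p = 0.000286) and Insl6 by 2.12 ± 0.40 (adjusted p = 0.00108), while Cbx6 fell by 1.82 ± 0.35 (adjusted p = 0.00124) and Raet1c by 1.96 ± 0.51 (adjusted p = 0.00753). In NWD1VitD against NWD1, 40.5% of all genes passed, 19.9% higher and 20.6% lower, and 3 of the 8 rose and 2 fell. The same 4 genes moved in the same directions, 2010001M06Rik by 3.87 ± 0.53 (adjusted p = 4.69e-05), Insl6 by 2.32 ± 0.37 (adjusted p = 0.000138), Cbx6 by -2.37 ± 0.33 (adjusted p = 5.86e-05) and Raet1c by -1.93 ± 0.47 (adjusted p = 0.00328). Serpina1c also rose, by 2.65 ± 0.62 (adjusted p = 0.00302), but did not pass on the log2(TPM + 1) scale (adjusted p = 0.106). The size of the Insl6 rise depended on the scale. Insl6 averaged 45.6 CPM in NWD1Ca and 54.0 CPM in NWD1VitD against 10.9 CPM in NWD1, but 70.5 and 69.4 TPM against 40.5 TPM. In TPM, NWD1Ca (54.0 to 85.9) overlapped with NWD1 (28.8 to 54.1), and NWD1VitD (65.5 to 72.0) did not. Both comparisons share the NWD1 libraries. The members' median log2 was -0.21 in NWD1Ca and 0.55 in NWD1VitD against NWD1, beside medians of -0.04 and -0.03 over all genes.

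In AINlowVitD against AIN, 31.3% of all genes passed, 15.1% higher and 16.3% lower, and 2 of the 8 rose and 1 fell. 2010001M06Rik rose by 2.63 ± 0.50 (SE, adjusted p = 0.000998), Insl6 rose by 1.43 ± 0.36 (adjusted p = 0.00592) and Cbx6 fell by 1.08 ± 0.32 (adjusted p = 0.0164). The Cbx6 call was lost without AIN 3, AINlowVitD 1 or AINlowVitD 3 (adjusted p = 0.0713, 0.0768 and 0.0830). In these 3 comparisons, as in those with AIN_VdrKO, the groups also differ in the mitochondrial ribosomal RNA share given above, without overlap. The set of libraries and the diet cannot be told apart. On the log2(TPM + 1) scale the median over all genes lay at -0.78 in NWD1Ca and -0.95 in NWD1VitD against NWD1, and at -0.65 in AINlowVitD against AIN. Genes passed as 827 higher and 8265 lower on that scale in NWD1Ca against NWD1, where the count fit gave 2507 higher and 2396 lower. The splits were 699 and 9678 against 3198 and 3306 in NWD1VitD against NWD1, and 733 and 7368 against 2416 and 2614 in AINlowVitD against AIN. Insl6 in AINlowVitD against AIN did not pass on the TPM scale (log2 0.27, adjusted p = 0.437), though it stood above that scale's median.

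Sex was read in the 18 libraries outside AIN_VdrKO, 8 from males and 10 from females, because all AIN_VdrKO mice were male. In males against females, 0 of the 8 and 0.0316% of 15833 genes passed in edgeR. The smallest adjusted p among the 8 was 0.976. Gm14446, alone among the 8, had an unadjusted edgeR p under 0.05, 0.0436, where 621 of the 15833 genes had one. The log2 difference of Gm14446 was -0.93 ± 0.42 (SE), males lower. The 8 male libraries outside AIN_VdrKO had 1.14 to 15.6 CPM of Gm14446, against 0 counts in the male AIN_VdrKO libraries. The part of sex in the AIN_VdrKO levels was not tested. DESeq2 called 9 genes between the sexes, none of them among the 8.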

How the data were processed

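RNA was measured by bulk sequencing in 21 libraries. The authors deposited whole-number read counts per gene, not normalised, and TPM values of the same 37310 genes, with 92 spike-ins that were left out of library sizes and tests. The submitters' processing notes name mm9, STAR 2.4.2a, HTSeq 0.6.1 and edgeR without their roles, and no annotation release. The labels' protocols name the SMART-Seq v4 and Nextera XT kits, which keep no strand. The 8 genes, the gene lists and the tests were chosen with earlier results of these data known.

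Counts were tested with the two-sided quasi-likelihood F test of edgeR 4.0.16 (R 4.3.3), TMM scaling, filterByExpr (16050 genes), a mean per group and a sex term over all 21 libraries, with Benjamini-Hochberg adjustment over all genes and a threshold of 0.05. Every adjusted p comes from this fit unless another is named. The sex comparison used 18 libraries (15833 genes). AIN_VdrKO contrasts of the 8 genes are given without a test. Pooled folds are ratios of summed counts over summed TMM-scaled library sizes with exact 95% binomial intervals. The floor for 0 counts was 3 counts over the group. P-values measure the spread between 3 libraries per group. The labels do not say whether replicates share litters. Alternatives were DESeq2 1.42.0, limma 3.58.1 on log2(TPM + 1) and log2(TPM + 0.1), other scaling, filter, covariates and left-out libraries.

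Named genes follow a rule: the 8 genes, Vdr, Lgr5, genes of the lists with a mean of at least 1 CPM (lower Serpina1, Raet1 and relaxin-list relatives, and S100g, are named for context), 2 neighbours on each side, the 5 most similar profiles, and up to 10 genes of each pattern at the 8-fold size. Identifiers were matched to GENCODE M21 for names, chromosome and order (32620 of 37310, and 8 of the 8); no coordinates were converted. Promoters are RefSeq windows of GRCm38.p6, a later build than mm9. The test script was checked on simulated counts.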

Additional observations from a re-analysis of the deposited data

How the results depend on the processing

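Among the 8 genes, the number at least 8 times lower in AIN_VdrKO than in both AIN and AINlowVitD was 7, and it stayed 7 under other scaling, no filter and every left-out library. It was 4 on the log2(TPM + 0.1) scale and 1 on the log2(TPM + 1) scale, where low genes are compressed by construction. With no constant added, TPM means of genes with counts in AIN_VdrKO also gave smaller folds against AINlowVitD than CPM means did. Dio1 averaged 3.25 TPM in AIN_VdrKO and 25.2 TPM in AINlowVitD, where CPM gave 3.27 and 55.4. The folds against AIN were not smaller, with Dio1 in AIN at 95.4 TPM and 95.3 CPM. The fit without the AIN_VdrKO libraries cannot give the number of genes at this size. The number of the 8 that passed in NWD1 against AIN, 1, was the least stable: it was 3 with DESeq2, 2 with limma on log2(TPM + 1), 5 with no filter, 2 with no sex term, and 0 with only the 2 groups compared and 0 without any one library. In AINlowVitD against AIN the number was 3, against 6 with limma on either log2(TPM + 1) or log2(TPM + 0.1), and 2 to 3 with a library left out. In NWD1Ca against NWD1 it was 4, with 4 to 5 when a library was left out and 4 to 6 under the other settings. In NWD1VitD against NWD1 it was 5 with any library left out and 5 to 6 under the other settings. In NWD2 against AIN it was 0 in all settings, and between the sexes it was 0, or 1 with no filter (Gm14446, lower in males). The causes were not tested. No called gene of the 8 turned sign under any alternative.

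The replicate numbers in the titles were not taken as pairs in the main fit. Deviations of same-numbered libraries of AIN_VdrKO and AIN correlated at 0.411, -0.0934 and 0.297, and those of NWD1 and AIN at 0.461, 0.0171 and 0.55. Other comparisons gave -0.264 to 0.212. These values cannot exclude a shared batch or litter. With the replicate number as a block, 0 of the 8 passed in NWD1 against AIN (Raet1c at an adjusted p of 0.0544), and the other counts of the 8 stayed within 1.5 times. Over all genes, AIN_VdrKO against AIN gave 2011 calls, from 992 to 2654 with a library left out and from 383 to 2990 under the other settings. AIN_VdrKO against AINlowVitD gave 492, from 130 to 1941 with a library left out and from 4 to 6293 under the other settings, and NWD1 against AIN gave 123, from 0 to 274 and from 13 to 969. In alternatives chosen after the data were seen, the count of the 8 lying below every other library was 8 in TPM and 7 without the NWD1 1 and NWD1 2 libraries, which carried 24.7% and 20.4% spike-in counts. Depth limits Raet1c and Serpina1c most, with 5 and 0 counts over the AIN_VdrKO libraries. Pooled folds lean on AIN_VdrKO 3, and ratios of group means, also chosen after the data were seen, stand beside them.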

Other observations

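The opposite pattern, at least 8 times higher in AIN_VdrKO than in both AIN and AINlowVitD with every AIN_VdrKO library above the 18 others, was met by 28 of 12111 genes with a mean of at least 1 CPM in AIN_VdrKO, 0.231%. Slpi, a secreted inhibitor of neutrophil elastase like the alpha-1 antitrypsins, was at 0.953 to 5.70 CPM in AIN_VdrKO and at 0 in the other 18 libraries. Lcn2, an iron-binding defence protein, was at 6.87 to 41.6 CPM in AIN_VdrKO against 0 to 0.337 CPM in the others. Tnf, the inflammatory cytokine gene, was at 0.727 to 2.13 CPM in AIN_VdrKO against 0 to 0.482 CPM in the others. Aldh8a1, an aldehyde dehydrogenase gene, was at 8.65 to 13.4 CPM in AIN_VdrKO against 0 to 0.410 CPM in the others, and Gm17167 was at 0.576 to 2.00 CPM against 0 in the other 18. These genes lie on 15 chromosomes, with 4 of them on chromosome 2 and 3 on chromosome 17, and 2 have no place in the annotation used.

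Of the 12 tested genes of the vitamin D receptor list, 2 fell in AIN_VdrKO against AIN, Abcb1a (log2 -1.62 ± 0.51, adjusted p = 0.0441) and Slc37a2 (log2 -3.69 ± 1.06, adjusted p = 0.0280), and none rose, where 5.09% of all genes fell. Against AINlowVitD, 2 of the 12 fell, Abcb1a and S100g, and none rose, where 2.38% of all genes fell. Trpv6, the calcium channel gene of the gut, had 0 counts in the 3 AIN_VdrKO libraries but also 0 to 0.0399 CPM in AIN, so no fold is given. It was at 13.9 to 20.6 CPM in NWD1.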
